A study of Mus musculus with 2 samples.

Results

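The variable (V) genes of the T cell receptor alpha and delta chains lie together on mouse chromosome 14. They were taken as the GENCODE M21 genes of that chromosome whose symbols begin with Trav or Trdv, whatever their T cell receptor biotype, which gave 134 genes of 55413 in all. Of these, 128 were Trav and 6 were Trdv genes, 113 were annotated as V genes and 21 as V pseudogenes, and 133 lay on the plus strand (Trdv5 lay on the minus strand). They measured 155 to 1840 bp, with a median of 530 bp. Peaks were counted at a gene when their summit lay within 2 kb of its body, and were also followed over the whole span from 2 kb before Trav1 to the end of the constant gene Trac (mm10 chr14:52425928-54224206, 1.8 Mb). The rule for the genes used no measured value, though earlier results of these data were known when it was set.

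The data were CTCF ChIP-seq of stomach tissue from B6NCrl mice on postnatal day 0, in 1 group of 2 libraries numbered as biological replicates 1 and 2. Both carry the same donor and the same tissue identifier in the labels, so the spread between them may be technical, and the sex was not collected. With a group of this kind there was no contrast between conditions and no test between groups. Each library was followed through the authors' peak lists. These are a relaxed list per replicate, a relaxed list of both together, and the optimal and conservative lists that IDR, a filter for peaks ranked alike in replicates, left of them. Whole stomach holds many cell types, and peak lists carry no expression, so neither the tissue label nor the share of lymphoid cells could be checked against marker genes. Read numbers were not used here, and the depth behind a peak is unknown.

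T and B cells build their antigen receptor genes by cutting and joining DNA: the RAG recombinase joins a V segment to a D or J segment at recombination signal sequences, which begin with a conserved heptamer directly behind the V gene. In this locus the Trdv segments serve the delta chain, the Trav segments serve the alpha chain, and a few, marked dv in the symbol, can serve both. CTCF, a DNA-binding protein with a row of zinc fingers, sits at insulators and halts loop extrusion by cohesin, depending on the direction of its motif. In mouse thymocytes it is known for shaping contacts between V segments and the J and C end of this locus. Stomach tissue is not where this recombination takes place.

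Sequence first shows the layout that most of the counts below refer to. Trav17 (chr14:53806639-53807115) was the V gene with the strongest peak at its start, and the stretch before its start is printed with the CTCF motif in capitals. The stretch over its end is printed with the heptamer of the recombination signal in capitals. Both are the plus strand of the reference genome, chr14:53806379-53806478 and chr14:53807096-53807161.

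Trav17 start: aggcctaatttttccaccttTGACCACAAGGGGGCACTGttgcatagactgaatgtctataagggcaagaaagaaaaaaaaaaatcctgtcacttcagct
Trav17 end: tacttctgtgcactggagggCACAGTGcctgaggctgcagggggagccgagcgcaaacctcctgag

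The heptamer CACAGTG stood directly behind the annotated end of 102 of the 134 genes, among them 93 of the 113 annotated as V genes, and 127 genes had CAC there. The gene end therefore marks the recombination signal for most members, and distances were measured from both the gene start and the gene end. The motif at Trav17 lay 231 bp before the gene start, on the side away from the recombination signal.

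Most CTCF summits of the array lay in front of the V gene nearest to them. The optimal list held 42 summits in the span, and 30 of these lay within 2 kb of a member. Of those 30, 29 lay upstream of the gene they were nearest to, 1 lay inside a gene body and 0 lay downstream, where the recombination signal is. For 2 of the 30 a second V gene lay on the other side, so that the Trav11n summit was also 1804 bp behind the end of Trav6n-6 and the Trav12-2 summit 1041 bp behind the end of Trav5-2. For 25 of the 30 the summit was at most 500 bp before the gene start, at a median position of −143 bp (range −420 to −45). Against the gene end the same 25 summits had a median position of −666 bp (range −941 to −527), and all 30 a median of −696 bp (range −2409 to −413). Windows of 2 kb around the members covered 32.3% of the span and held 71.4% of its summits, and the 500 bp in front of the members covered 3.73% and held 59.5%. For 41 of the genes the annotation begins at the coding sequence, so the distance to the first transcribed base may differ from the distance printed.

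**Figure D1:**
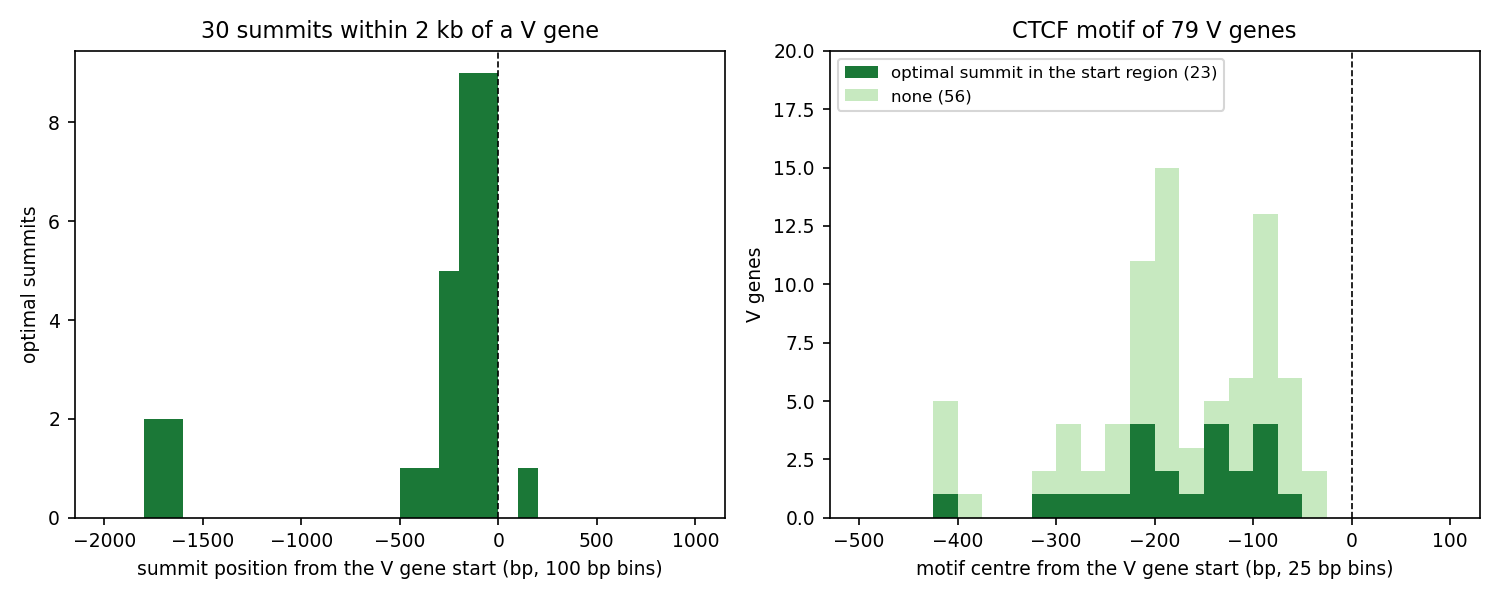
Left, position of the 30 optimal summits within 2 kb of a V gene, in bp from the annotated gene start along the direction of transcription (negative is upstream), as counts in 100 bp bins. Right, position of the CTCF motif of the 79 V genes that have one from 500 bp before to 100 bp after the start, in 25 bp bins, with dark bars for the 23 genes that also have an optimal summit there. The summits pile up just before the gene start, with 4 around 1.7 kb further out, and every motif centre lies upstream.

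By gene, 30 of the 134 members (22.4%, exact Clopper-Pearson 95% interval 15.6 to 30.4) had an optimal summit within 2 kb, against 41.4% of all GENCODE genes and 15.5% of the GENCODE genes no longer than the longest member. These intervals cover counting error only, and many members are near-identical copies, so genes are not independent. The 30 genes comprised 24 annotated V genes and 6 pseudogenes. Of the summits, 4 were each within reach of 2 members, and 4 genes had 2 summits. In the relaxed list of both replicates 41 of the 134 members had a summit within 2 kb, against 33978 of all 55413 genes (61.3%). The separate lists gave 42 members in replicate 1 and 37 in replicate 2, and the conservative list gave 25. For these lists the share among all genes was not counted, so the counts cannot be set against a background. When only the region from 500 bp before to 100 bp after the gene start is counted, 25 members (18.7%) had an optimal summit there, against 11.8% of all genes.

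Within 2 kb of the V genes, every CTCF motif at a summit pointed along the gene, and so did every motif in a start region. The motif was modelled over 19 positions on the optimal peaks of chromosome 1 with the highest signal (1000 peaks), with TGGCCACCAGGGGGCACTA as its consensus. A stretch was said to hold the motif when its best score on either strand reached 10.52, which 1% of random windows of the size used at summits met. Of the 30 summits near members 23 had the whole motif within 50 bp (76.7%, interval 57.7 to 90.1), and all 23 ran in the direction of the V gene. The summits of Trav9n-1, Trav10d, Trav8-2 and Trav10n counted as without it. Their start regions did hold a motif, centred 44, 49, 152 and 168 bp from the summit. Over the span it was 32 of 42 (76.2%, interval 60.5 to 87.9), 28 on the plus strand and 4 on the minus strand, and among all optimal summits the share was 67.7%.

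The start regions were then read whether or not they held a summit. From 500 bp before to 100 bp after the start, 79 of the 134 members had the motif (59.0%, interval 50.1 to 67.4), against 10.7% of the same regions of all genes. All 79 motifs ran with the V gene, against 55.8% of the motifs at all genes, and their centres lay from −422 to −39 bp with a median of −179 bp. In a region of the same length that began 1000 bp behind the gene end, 8 members (6.0%) had it. All 8 of those motifs also ran with the V gene, so the shared direction was not limited to the start regions. The 79 motifs came as 36 different sequences, so many are copies of each other, and no test was made of the direction.

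Whether a V gene had the motif went by family. In 9 of the families with more than 1 member nearly all genes had it: all 8 Trav3, 9 Trav5, 13 Trav7, 5 Trav8, 11 Trav9, 3 Trav10, 3 Trav11 and 10 Trav12 genes, and 12 of 15 Trav6 genes. In 5 other Trav families none had it in the start region: 9 Trav4, 12 Trav13, 9 Trav14, 9 Trav15 and 3 Trav16 genes. Its place also differed between families, with a median of −412 bp in Trav5, −239 bp in Trav9, −216 bp in Trav8, −179 bp in Trav7, −101.5 bp in Trav6 and −86 bp in Trav12. Among the families without it, Trav4, Trav13, Trav14 and Trav15 had no optimal summit within 2 kb of any member.

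Among the Trav families of several genes without a start motif, only Trav16 had optimal summits, further upstream at all 3 of its copies. Trav21-dv12, the only Trav21 gene, shared this layout. It had no start motif and a summit 1641 bp before its start, with a plus-strand motif. The Trav16 summits lay 1763 bp before Trav16d-dv11, 1724 bp before Trav16n and 1655 bp before Trav16. Their signal, the value that the authors' peak caller gave each peak, was 106 at Trav16d-dv11 (60.3 in replicate 1 and 47.1 in replicate 2), 58.0 at Trav16n (28.6 and 31.3) and 95.2 at Trav16 (58.9 and 35.6). The motifs under these summits are shown because they are near-identical between the copies, with capitals for the motif, on the plus strand.

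Trav16d-dv11: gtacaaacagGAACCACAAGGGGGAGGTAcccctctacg
Trav16n: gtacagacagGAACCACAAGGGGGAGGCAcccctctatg
Trav16: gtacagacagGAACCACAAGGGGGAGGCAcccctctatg

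The signal varied widely among the members' summits. It ran from 17.3 to 314 with a median of 54.2 near the V genes and from 17.3 to 464 with a median of 57.4 over the span, against a median of 76.6 for all optimal peaks. Of the summits near V genes, 8 of 30 reached that median. The 5 strongest peaks in start regions belonged to genes from Trav3-3 onward, in the part of the array nearer the J genes. These 5 start regions were also more unique in sequence than most, by the measure given below. Words found once in the genome made up 59.7 to 100% of them, against a median of 26.0% for all members. The part of uniqueness in the signal was not tested.

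Trav17 had a signal of 314 at a summit 233 bp before its start, with 165 in replicate 1 and 147 in replicate 2. A stronger summit of 383 (212 and 172) lay 2209 bp before it, just outside the 2 kb window, with the motif on the minus strand. The motif of this summit and the start motif pointed away from each other. Trav3-4 followed with 191 (114 in replicate 1 and 75.4 in replicate 2) at 73 bp before its start, and the pseudogene Trav12-4 was counted through the same peak. Trdv1 had 139 (82.1 and 56.7) at 157 bp before its start.

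The next start peaks were of similar height to each other. Trav3-3 had 97.3 (52.1 in replicate 1 and 44.9 in replicate 2), Trav6-7-dv9 had 89.7 (49.2 and 39.0), and Trav9n-1 had 80.6 (51.6 and 28.9). Trav5-1 had 76.6 (43.0 and 32.2), Trav6n-6 had 71.5 (48.6 and 22.9) and Trav7-1 had 70.0 (34.6 and 34.0). These are the authors' values for single peaks, and they rank peaks within a list only. Trav6-7-dv9 also had the 1 summit inside a member, in its intron 200 bp behind the first summit, with a signal of 60.8 (25.6 and 24.1) and no motif.

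Replicate 1 gave the higher signal at 37 of the 42 summits of the span, by a median ratio of 1.33 (range 0.56 to 3.51), and the replicate lists are not scaled to each other. All 42 summits had a partner within 100 bp in both relaxed lists. When each replicate was cut to its 74283 strongest peaks, the length of the optimal list, 32 of 42 (76.2%) had a partner in both, against 83.2% of all optimal summits. The other summits were weak ones, with signals of 17.3 to 31.5, such as Trav12-2 with 17.3 (6.90 in replicate 1 and 7.40 in replicate 2) and Trav9d-1 with 18.9 (13.3 and 6.62). The 5 summits where replicate 2 was higher included Trav6-1 (7.18 in replicate 1 and 12.1 in replicate 2), Trav19 (11.2 and 20.2) and Trav16n.

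**Figure D2:**
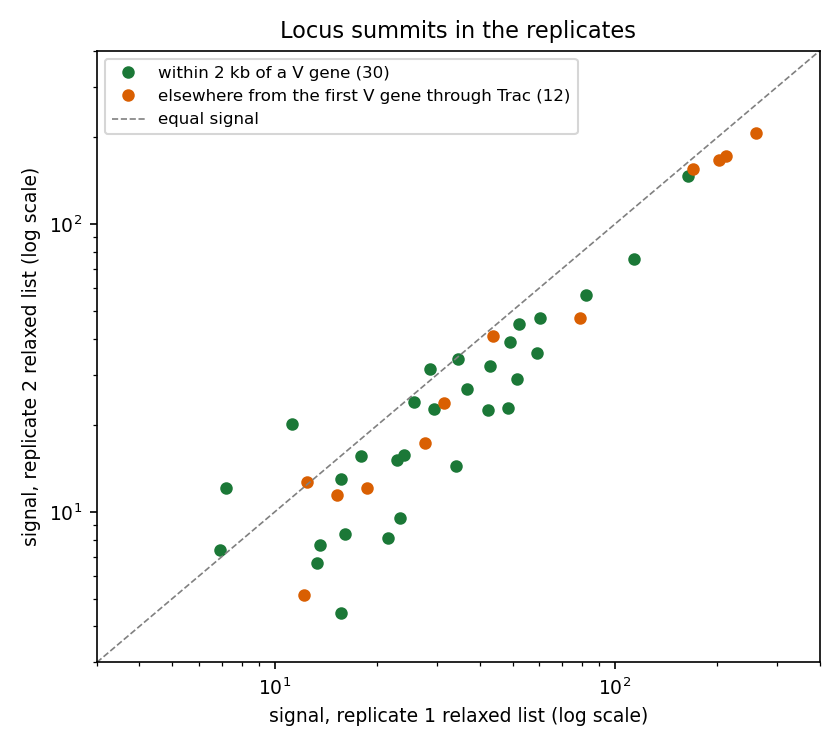
Signal of the 42 optimal summits of the span in the relaxed list of replicate 1 (x axis) and of replicate 2 (y axis), both on a log scale, with green points for the 30 summits within 2 kb of a V gene and orange points for the other 12; the dashed line marks equal signal. Most points lie below the line (replicate 1 higher at 37 of 42), and the points farthest from it are weak peaks.

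Along the locus the distances between neighbouring summits varied widely. The span held 23.4 summits per Mb, against 23.5 on chromosome 14 and 28.1 over the genome without gaps. Among the 37 summits from the start of the array to the end of Trdv4, neighbours were a median of 19.7 kb apart (36 distances, from 200 bp to 234.7 kb), against 15 kb on chromosome 14 and 12.3 kb over the genome. The starts of the V genes themselves were a median of 9.6 kb apart. The first summit, at Trav3-1, lay 152.6 kb behind the start of Trav1.

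Of these distances 4 exceeded 100 kb, and these stretches held many V genes that have a CTCF motif. How often distances over 100 kb occur on chromosome 14 or over the genome was not counted. From the Trav10d summit to the one before Trav16d-dv11 there were 234.7 kb with 25 V genes without a summit, 16 of them with the start motif. From Trav11n to Trav8n-2 there were 210.8 kb with 23 such genes, 14 with the motif. From Trav16n to Trav12-1 there were 188.8 kb with 16 genes, 11 with the motif, and from Trav7-1 to Trav9d-1 there were 137.4 kb with 8 genes, 7 with the motif.

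**Figure D3:**
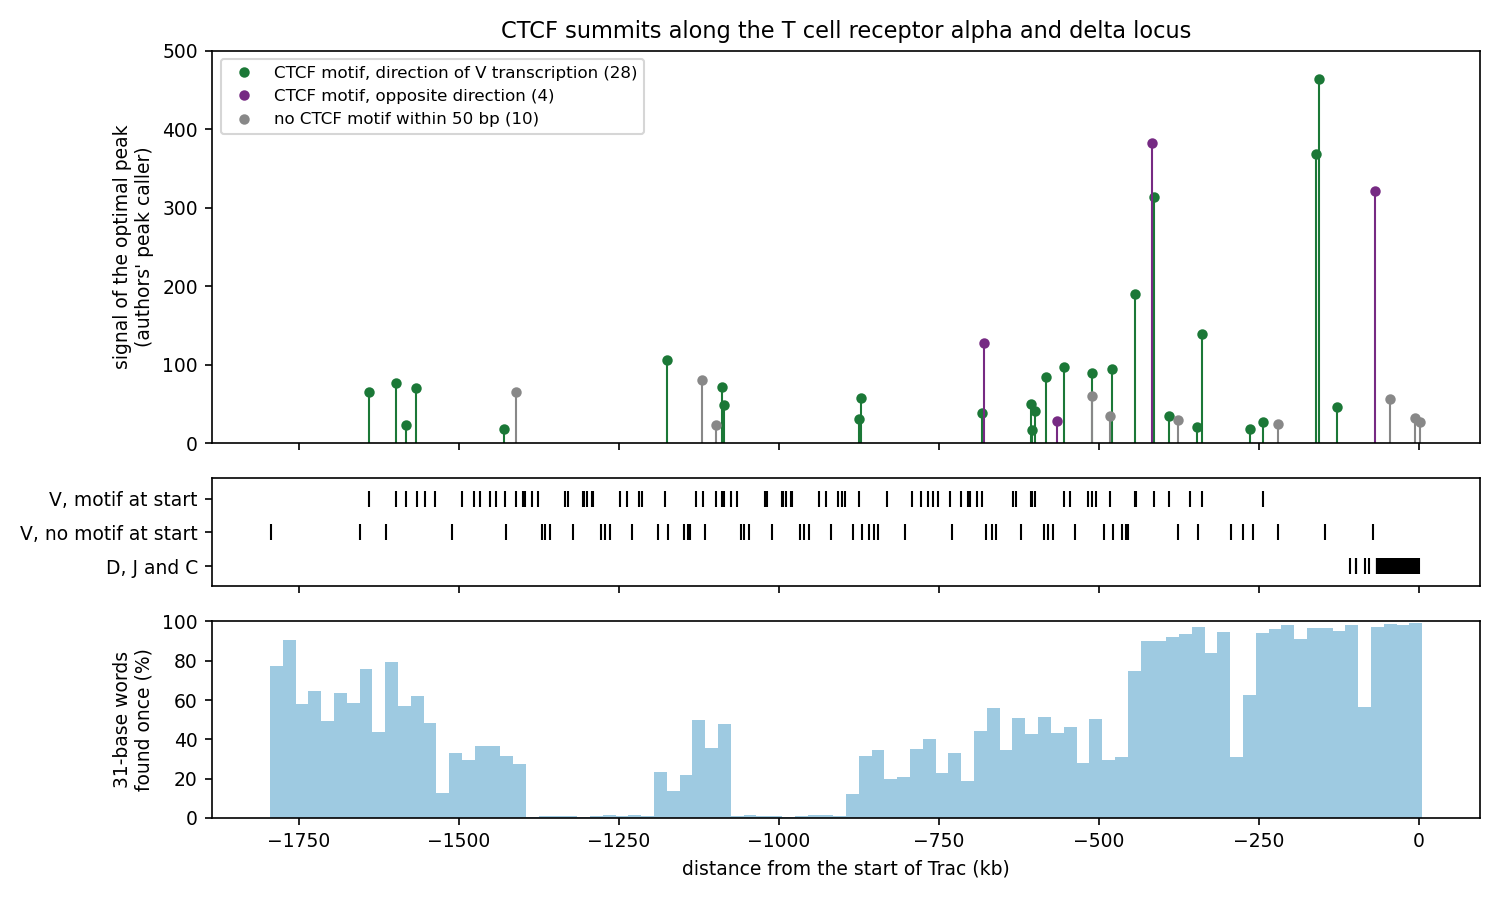
The locus against distance from the start of Trac in kb. Top, signal of each of the 42 optimal summits, coloured by the direction of the CTCF motif; middle, V genes with and without the start motif, and the D, J and C genes; bottom, share of 31-base words that occur once in the genome, in 20 kb bins. The longest stretches with V genes and motifs but without summits lie where few words occur once, and the tallest peaks lie in the last 500 kb.

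The longest of those stretches are also where the reference sequence repeats itself most. The array holds near-identical blocks. Many of their genes carry the letter d or n, but copies without a letter, such as Trav6-6 and Trav11, lie in repeated sequence too. A read from such a block can have more than 1 place to align. Uniqueness was measured as the share of 31-base words of a region that occur once in the primary assembly. It was 44.9% over the span, 4.3% in the stretch from Trav10d to Trav16d-dv11 and 4.8% from Trav11n to Trav8n-2. It was 28.8% from Trav16n to Trav12-1 and 33.2% from Trav7-1 to Trav9d-1. Some shorter distances between summits were as low as these last values, with 28.5% from Trav16d-dv11 to Trav9n-1 and 33.2% from Trav9n-1 to Trav10n. The alignments that the lists were made from are described as filtered, but the filter, including how reads with several places were treated, is not given in the sources used here.

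Among the 79 V genes with the start motif, the presence of a summit went with uniqueness. In 34 of them under 10% of the words of the start region occurred once, and 0 of these had an optimal summit there (interval 0.0 to 10.3%) and 0 had a relaxed one. Between 10% and 50% it was 7 of 22 (31.8%, interval 13.9 to 54.9), and at 50% or more it was 16 of 23 (69.6%, interval 47.1 to 86.8). In the relaxed list these counts were 10 of 22 and 19 of 23. The 23 genes with a summit had a median of 60.8% unique words (range 20.5 to 100) and a median motif score of 19.9. The 56 without had a median of 4.4% (range 0.0 to 91.9) and a median motif score of 18.6.

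In unique sequence, most genes without the motif had no summit in the start region. Among all GENCODE genes, whatever their motif or uniqueness, 11.8% had an optimal summit there. A low share is therefore not particular to these V genes. Of the 20 V genes with at least 50% unique words and no start motif, 2 had an optimal summit in the start region, Trav19 and Trdv3, whose best scores of 10.04 and 10.23 lay just under the threshold. Where few words are unique, a missing summit cannot be told apart from reads that were not placed. The part of uniqueness in the empty stretches was not tested.

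**Figure D4:**
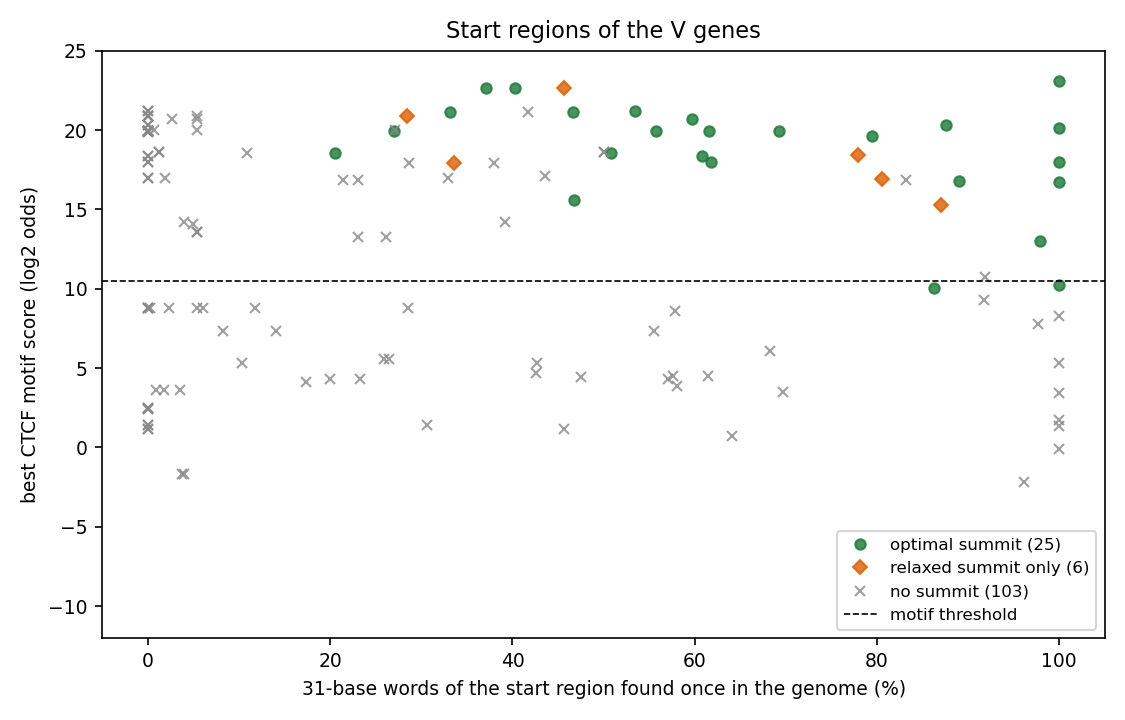
Start regions of the 134 V genes: share of 31-base words found once in the genome (x axis, %) against the best CTCF motif score (y axis, log2 odds), with the motif threshold of 10.52 as a dashed line. Green circles have an optimal summit in the start region (25), orange diamonds a relaxed summit only (6) and grey crosses neither (103). Summits appear in the upper part right of 20% unique words, and the crowd of high-scoring crosses at the left edge has none.

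Copies with the very same motif can be compared gene by gene, and their summits followed uniqueness in some sets of copies but not in others. They are printed because their 19 motif letters, and mostly the 10 letters on each side, do not differ. Capitals mark the motif, and all are on the plus strand.

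Trav3-3: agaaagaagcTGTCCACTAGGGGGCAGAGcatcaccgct
Trav3d-3: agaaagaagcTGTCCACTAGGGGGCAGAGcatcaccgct
Trav3n-3: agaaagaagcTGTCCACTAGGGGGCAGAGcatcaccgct
Trav6n-6: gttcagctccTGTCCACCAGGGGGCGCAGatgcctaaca
Trav6d-6: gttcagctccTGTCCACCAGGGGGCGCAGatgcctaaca
Trav6-6: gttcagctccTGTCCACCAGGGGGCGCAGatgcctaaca
Trav10d: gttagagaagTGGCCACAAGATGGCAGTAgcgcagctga
Trav10n: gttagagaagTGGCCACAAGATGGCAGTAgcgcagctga
Trav10: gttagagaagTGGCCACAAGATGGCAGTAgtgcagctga
Trav9n-1: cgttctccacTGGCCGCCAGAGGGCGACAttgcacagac
Trav9d-1: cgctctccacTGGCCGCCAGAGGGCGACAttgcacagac
Trav9-1: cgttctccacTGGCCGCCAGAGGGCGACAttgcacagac

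Trav3-3, with 59.7% unique words, had a signal of 97.3, whereas Trav3d-3 with 2.6% and Trav3n-3 with 5.4% had no summit in any list. Trav6n-6, with 53.4%, had 71.5, whereas Trav6d-6 and Trav6-6, both at 0.0%, had none. In both trios, the copy with a summit was the copy with the most unique surroundings. Trav9n-1 (50.8%) had 80.6, Trav9d-1 (20.5%) had 18.9 and Trav9-1 (10.9%) had none.

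The Trav10 trio was closer in uniqueness and had peaks at all 3 copies in the relaxed list. Trav10d (40.3%) had 65.0 with 36.7 in replicate 1 and 26.7 in replicate 2, and Trav10n (37.1%) had 22.9 with 15.7 and 4.46. Trav10 (45.7%) was not in the optimal list and had 22.2 in the relaxed list, with 6.43 and 14.7. The Trav10d summit lay 49 bp and the Trav10n summit 168 bp from the motif centre, while the median over the 23 genes with both was 18 bp, so the position of a peak in these copies is uncertain.

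In the Trav10 and Trav8-2 trios the signal did not follow the order of uniqueness, since Trav10, the most unique of its trio, was not in the optimal list. Trav8d-2 (41.7%) had no summit in any list, while Trav8n-2 (33.1%) had 31.5 (21.5 in replicate 1 and 8.12 in replicate 2) and Trav8-2 (46.6%) had 34.9 (23.4 and 9.52), all 3 with the same motif at a score of 21.14. Another motif, AAACCAGCAGAGGGCGCTG, stood in the start region of 7 Trav12 genes, and the 3 with a summit were Trav12-1 (38.7), Trav12-2 (17.3) and Trav12-3 (40.7). The motif TGGCCTCCAGAGGGCGCTG stood in front of 6 Trav9 genes with 0 optimal summits.

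V genes without an optimal summit lay in unique as well as in repeated sequence. Trav1 and Trav2, the first genes of the array, had no summit in any list with 100% unique words, and their best motif scores of 1.74 and 8.29 were under the threshold. Trav6-2 had the motif (16.84) with 83.2% unique words, no optimal summit, and a relaxed peak of 4.44 in replicate 1 within 2 kb but none in replicate 2. Trav7d-2 (1.2%), Trav6d-3 (23.1%) and Trav7d-3 (50.1%) had the motif and no summit in any list. Trav20 (15.29, 87%) was present in the relaxed list only, at 11.0 with 3.50 in replicate 1 and 6.46 in replicate 2. Trav23, the last Trav gene, had a summit of 27.7 (15.6 and 13.0) 184 bp before its start, with the motif.

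The delta V genes lie in mostly unique sequence and differed among themselves. Trdv1 had its summit of 139 with a motif scoring 16.73, and Trdv3 had one of 25.4 (16.1 in replicate 1 and 8.41 in replicate 2) 234 bp before its start, without a motif over the threshold. Trdv2-1, Trdv2-2, Trdv4 and Trdv5 had no optimal summit within 2 kb. Their start regions held 96.1 to 100% unique words, and none of the 4 had the motif. The nearest summit to Trdv2-2 lay 4591 bp before it with a signal of 17.9 (12.2 in replicate 1 and 5.12 in replicate 2).

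The 3 strongest peaks of the span lay outside the 2 kb windows of the V genes: the one before Trav17 given above, and a close pair before Trdv4. One of the pair lay 14944 bp before the start of Trdv4 (summit at chr14:54059961) with a signal of 369, from 203 in replicate 1 and 167 in replicate 2. The other lay 10178 bp before it (summit at chr14:54064727) with 464, from 259 and 207, and ranked in the top 2.44% of all optimal peaks. They were 4.8 kb apart, and both motifs ran on the plus strand, in the direction of the Trav genes and towards the J and C end. A weaker summit of 46.2 (27.7 and 17.3) lay 17117 bp behind Trdv4, also with a plus-strand motif.

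The J and C end, from Trdd1 to the end of Trac, held a strong CTCF summit at its Traj boundary and weak ones among the Traj genes. It spans 110.7 kb and 66 genes: the delta segments Trdd1, Trdd2, Trdj1 and Trdj2, the delta constant gene Trdc, 60 Traj genes and Trac. The optimal list had 4 summits there, which put 9 of the 66 genes within 2 kb of one. Among all GENCODE genes 41.4% had one within 2 kb, and among those no longer than the longest V gene 15.5% did. Trdd1, Trdd2, Trdj1, Trdj2 and Trdc had none within 2 kb, at distances of 20836, 29594, 29847, 16198 and 4167 bp.

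The strong summit lay between Trdv5 and Traj61, 1.97 kb before Traj61, the most upstream Traj gene, with a signal of 322 from 170 in replicate 1 and 155 in replicate 2 (summit at chr14:54153035). Its motif scored 16.93 and ran on the minus strand, against the direction of the V genes' motifs. The V gene nearest to it, Trdv5, also lies on the minus strand, and the summit was 3741 bp before its start. The other 3 were weaker: 56.8 (31.4 and 23.8) at 93 bp before Traj42, 32.7 (18.7 and 12.1) at 854 bp behind Traj5, and 27.5 (12.5 and 12.7) in an intron of Trac. Their best motif scores of 10.13, 8.95 and 10.01 lay under the threshold. Traj1, the last Traj gene, was 4113 bp from a summit.

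Behind Trac the signal was high again. A summit of 307 lay 3.9 kb after the end of Trac, with a motif of 17.13 on the plus strand; replicate 2 had a summit 7 bp away with 151, and the nearest summit of replicate 1 was 153 bp away, beyond the 100 bp used for partners. A summit of 446 (238 in replicate 1 and 209 in replicate 2) lay 15.03 kb after Trac in an intron of Dad1, the next coding gene, which encodes a subunit of the oligosaccharyltransferase complex. Its motif scored 19.93 on the plus strand. The motifs of these strong sites are printed in their own direction, with capitals for the motif, to show the strand on which each lies.

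plus strand, 14944 bp before Trdv4: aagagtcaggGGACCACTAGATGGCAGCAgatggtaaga
plus strand, 10178 bp before Trdv4: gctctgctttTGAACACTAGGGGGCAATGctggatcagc
minus strand, before Traj61: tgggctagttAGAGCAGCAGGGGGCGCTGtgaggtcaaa
plus strand, behind Trac: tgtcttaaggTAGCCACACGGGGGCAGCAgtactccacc
plus strand, in Dad1: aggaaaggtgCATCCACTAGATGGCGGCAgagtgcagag

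The other minus-strand motifs of the span were few. Besides the summits before Traj61 and Trav17, they belonged to a summit of 128 (79.0 in replicate 1 and 47.3 in replicate 2) 3115 bp behind Trav12-1 and to one of 28.5 (15.2 and 11.5) 4894 bp behind Trav15-2-dv6-2. Both lay more than 2 kb from any V gene, as did a summit of 84.9 (43.7 in replicate 1 and 40.8 in replicate 2) with a plus-strand motif, 2477 bp behind Trav13-2. All 4 minus-strand motifs therefore fell outside the 2 kb windows of the members.

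The V arrays of the immunoglobulin heavy chain (Ighv, chromosome 12) and kappa chain (Igkv, chromosome 6) were read the same way, side by side and without a test. Within 2 kb, 22.4% of the 134 Trav and Trdv genes had an optimal summit, against 13.1% of 183 Ighv genes (interval 8.6 to 18.9) and 1.2% of 160 Igkv genes (interval 0.2 to 4.4). The start motif was present in 59.0% of Trav and Trdv genes, against 1 Ighv gene (0.5%) and 4 Igkv genes (2.5%). In all 3 arrays every start motif ran with its V gene, though the Ighv and Igkv motifs were few. From the first to the last V gene the alpha and delta array had 22.0 summits per Mb, against 7.8 for Ighv and 7.3 for Igkv.

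The side of the V gene differed between the Trav and Trdv and the Ighv array, with too few Igkv summits to compare. Of the 30 summits near Trav and Trdv genes 29 lay upstream of the nearest gene, against 1 of 19 near Ighv genes, where 17 lay downstream, and against 2 of 2 near Igkv genes. The motif ran in the direction of the V gene in all 23 cases at Trav and Trdv genes, against 17 of 17 at Ighv genes and 0 of 2 at Igkv genes. Unique words made up a median of 26.0% of the start regions of Trav and Trdv genes, against 73.7% for Ighv and 64.5% for Igkv. The start regions of the alpha and delta genes were thus the least unique of the 3 arrays. Chromosome, length of the array and copy number differ between the 3 arrays and cannot be told apart from the kind of V gene.

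**Figure D5:**
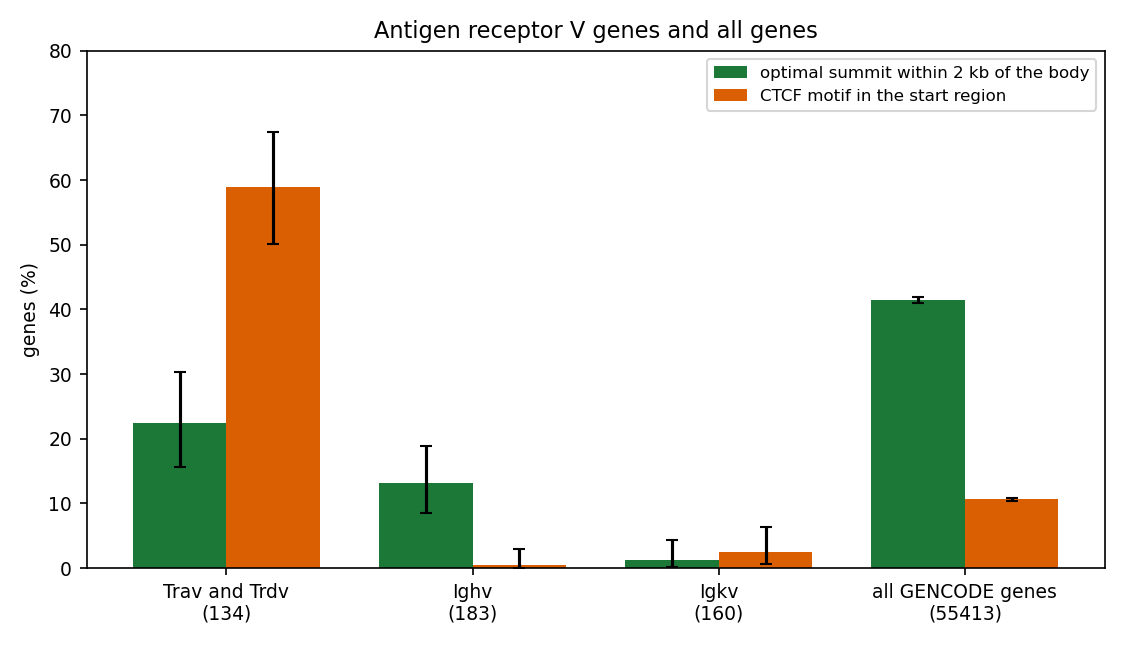
Share of genes (%) with an optimal summit within 2 kb of the body (green) and with a CTCF motif in the start region (orange), for Trav and Trdv, Ighv and Igkv genes and all GENCODE genes, with the number of genes in parentheses; bars start at 0 and whiskers are exact Clopper-Pearson 95% intervals, counting error only. The motif share is 59.0% for Trav and Trdv genes and 10.7% for all genes.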

How the data were processed

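CTCF ChIP-seq of newborn mouse stomach was read from 5 peak lists (2 libraries, 1 group) in mm10. Per the descriptions deposited with the samples, the authors derived 3 relaxed lists from filtered alignments and a control alignment, and the optimal and conservative lists by IDR. Neither the aligner nor the peak caller, their versions or the IDR cut-off is given in the sources used here. Each deposited list gives per peak a signal of the peak caller, −log10 of a q-value and a score, as deposited. Only the signal was used, within lists. Control libraries are not analysed here.

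The members and lists were chosen with earlier results of these data known. Of 74293 optimal peaks, the 74283 on chromosomes were kept. Summits were set against GENCODE M21 genes; sequence came from the RefSeq copy of the same build. The motif matrix used 982 alignable peaks of 1000. Tested on simulated data, 91.7% of planted motifs were found over 2000 windows, 99.5% of them in the right place and strand, and 1.0% of windows without one were called. The start region, the uniqueness classes and their alternatives were chosen after seeing the data. Named genes were all Trdv genes, the 12 Trav genes of highest signal, the first and last Trav genes, the first 6 Trav genes of V gene biotype (pseudogenes passed over) without an optimal summit, families with lettered copies holding 2 or more summits, and landmarks of the J and C end; the other genes and summits named, among them Trav20 and the copies Trav3-3 and Trav6n-6 are compared with, were picked after their values were seen. Genes listed under another symbol (2 of V biotype) were left out. Python 3.11.15 was used with pysam 0.24.0 to read sequence, numba 0.67.0 to count words, pandas 2.3.3 and numpy 2.4.6 for the tables, scipy 1.17.1 for intervals and matplotlib 3.10.9 for figures.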

Additional observations from a re-analysis of the deposited data

How the results depend on the processing

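The optimal list was replaced by the conservative list, by optimal peaks at or above the median signal, or by 1 replicate's relaxed list. That relaxed list was cut to its 74283 strongest peaks. Other alternatives were windows of 1 kb and 5 kb, a partner distance of 50 or 300 bp, a stricter motif score and leaving out pseudogenes. Of 61 recomputed values 37 stayed within their limits, 24 moved and 0 changed sign. Taking only peaks at or above the median signal moved most: 9 genes in place of 30 had a summit, 7.8 in place of 23.4 summits per Mb, a distance from the gene end of −713.5 bp in place of −696 bp, a spacing of 39698 bp in place of 19684 bp, 100% in place of 76.2% of summits in both replicates, a median signal of 101.6 in place of 54.2, and 1 summit in place of 4 at the J and C end. The conservative list gave 20 summits per Mb, −706.5 bp, 27926 bp, 91.7% in both replicates and a signal of 65.1. A window of 1 kb gave −664.5 bp and a signal of 50, 5 kb gave a signal of 59.4, and leaving out pseudogenes gave 58.0. The stricter motif score lowered the share of summits with the motif to 53.3%, in place of 76.7%. Of these, the lists were filtered harder by construction, and for the others the cause was not tested. All motifs near members ran with the V gene except in the 5 kb window, where 89.7% did.

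With 1 replicate left out, values ranged from 26 to 28 genes, 21.1 to 22.2 summits per Mb, −709 to −702 bp, a spacing of 20468 to 27538 bp, 72.0 to 72.4% with the motif, a signal of 24.1 to 29.4 (each replicate's own scale) and 3 to 5 summits at the J and C end; the share in both replicates then has no value. No paired analysis was possible because there is a single group. Among alternatives chosen after seeing the data, the 79 genes with a start motif became 83 with 1000 bp, 70 with 300 bp and 66 with the stricter score. The 69.6% of mostly unique motif genes with a summit became 61.5% at 75% unique words, 82.6% in the relaxed list and 65.2% in the conservative one. With no read counts, depth is unknown and no limit on missed peaks can be given.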

Other observations

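Between the optimal summits, the relaxed list of both replicates held 64 further summits in the span at more than 300 bp from any optimal one, with signals of 5.01 to 29.59 and a median of 6.5. Of these, 14 had the motif and 13 had a partner in both replicates, 5 of them with the motif. The highest was 29.59 (13.74 in replicate 1 and 15.07 in replicate 2), with a motif score of 13.26, at 19129 bp from Trdv1. At V gene starts they included Trav6-4 with 13.39 (9.47 in replicate 1 and 3.61 in replicate 2) and Trav9-2 with 10.48, which had 5.41 in replicate 1, while the start region's summit in replicate 2, at 4.57, lay beyond the 100 bp used for partners.

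Genes of V biotype in the array under other symbols had no summit within 2 kb in any list. C920008G01Rik had the motif at a score of 14.21, centred at −310 bp from its start, with 3.9% unique words, and B230359F08Rik had no motif with 82.8% unique words.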
